A study of Mus musculus with 10 samples.

Results

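The 10 genes described here encode the subunits of the AMPA and NMDA receptors, the ion channels through which glutamate drives fast excitatory transmission. They were taken by symbol from a table of 15900 genes, and 4 of them (*Gria1* to *Gria4*) encode AMPA receptor subunits and 6 (*Grin1*, *Grin2a*, *Grin2b*, *Grin2c*, *Grin2d* and *Grin3a*) NMDA receptor subunits. All 10 passed the filter on low values and were among the 15851 genes tested. RNA levels were measured by cap analysis of gene expression (CAGE), which sequences the capped 5′ ends of transcripts. The samples were whole hippocampi of 10 male ICR mice aged 9 to 10 weeks, with 2 separate mice in each of 5 groups. Levels are given as CPM, the tag count of a gene scaled to the total of its library, and for each gene the 2 values of a group are those of replicates 1 and 2.

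Mice of every SE group were given methyl scopolamine and then pilocarpine (PILO), a muscarinic agonist that triggers status epilepticus (SE), and received diazepam to stop the seizures. SE 6 h and SE 2 days mice were sampled 6 h and 2 days after SE with no further drug. SE + LEV 6 h and SE + LEV 2 days mice were sampled at the same times and had also been given oral levetiracetam (LEV), an antiseizure drug that binds the synaptic vesicle protein SV2A, in 1 dose by 6 h and 5 doses by 2 days. Pre-SE mice are labelled untreated, and according to the study's methods control mice were injected with saline in place of PILO. Whether control mice also had methyl scopolamine is not stated there. PILO is given to the whole animal, so the model includes generalized convulsions and not only hippocampal seizures. With 2 mice a group, an exact permutation test of a single value cannot give a two-sided p below 0.333, so the tests below rest on a spread that limma shared across genes and groups. Fold changes are differences in log2(CPM + 0.1), and a gene is said to be called, to have risen or to have fallen where its p, adjusted over all genes tested, was at most 0.05.

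AMPA receptors open within milliseconds of glutamate release and carry most of the fast current, and the edited GluA2 subunit, encoded by *Gria2*, makes them nearly impermeable to calcium. NMDA receptors need both glutamate and a co-agonist, glycine or D-serine. They are blocked by magnesium at rest and admit calcium, which links them to synaptic plasticity and, when overactive, to excitotoxic death of hippocampal neurons. Each NMDA receptor holds the obligatory GluN1 subunit (*Grin1*) together with GluN2 subunits (*Grin2a* to *Grin2d*), which set its kinetics, or the GluN3A subunit (*Grin3a*), which lowers its calcium permeability.

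Since CAGE counts the 5′ ends of transcripts, the sequence just before the start of a gene is the piece of genome nearest to what was counted. Promoter sequences of RefSeq (GRCm38.p6) were at hand for 5 of the 10 members (*Grin1*, *Gria2*, *Grin2d*, *Gria4* and *Grin2c*), and each matched 1 place in mm9, the build of the deposited table. The 150 bases before the start are printed for *Grin2c*, which had the largest estimated decrease at 2 days among the members, for *Grin1*, which had the smallest, and for *Gria4*, which held the only EGR match, and all 3 are on the minus strand, at chr11:115128558-115128707, chr2:25174708-25174857 and chr9:4796235-4796384 in that order. Capitals mark matches to the motifs searched.
Grin2c: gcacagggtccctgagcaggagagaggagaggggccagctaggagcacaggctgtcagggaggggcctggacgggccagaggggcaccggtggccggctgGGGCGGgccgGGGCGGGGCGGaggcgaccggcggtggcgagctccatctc
Grin1: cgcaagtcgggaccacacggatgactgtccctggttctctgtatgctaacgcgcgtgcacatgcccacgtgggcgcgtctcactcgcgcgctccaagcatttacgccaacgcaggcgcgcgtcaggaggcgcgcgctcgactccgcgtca
Gria4: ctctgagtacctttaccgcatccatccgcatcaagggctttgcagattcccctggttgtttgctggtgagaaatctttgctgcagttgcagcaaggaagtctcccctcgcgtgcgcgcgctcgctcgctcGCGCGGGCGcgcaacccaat

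A total of 6 motifs was searched on both strands of the 250 bases before each start, namely the GC box of SP1 (GGGCGG), the cAMP response element (TGACGTCA), the AP-1 site (TGANTCA), the EGR site (GCGNGGGCG), the TATA box (TATAAA) and the NRF1 site. *Grin2c* held 3 GC boxes, of which the 2 nearest to the start share a base, and 32.97% of the 32536 promoters of the same length held at least 1. *Gria4* held 1 EGR site, which 4.742% of promoters held. None of the 5 windows held a cAMP response element (1.555% of promoters), an AP-1 site (6.728%), a TATA box (12.31%) or an NRF1 site (3.765%). GC content was 68.8% in *Grin2c*, 64.8% in *Gria2*, 58.8% in both *Grin1* and *Gria4* and 54.4% in *Grin2d*, against a median of 52.4% over all promoters. The *Grin2d* window lies 4247 bases inside the gene as the mm9 annotation draws it. These matches describe letters in a window and say nothing about whether a factor was bound.

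The members differed widely in level. They are protein-coding genes spread over 9 chromosomes of mm9, with *Gria1* and *Grin2c* on chromosome 11 and *Gria2* on 3, *Gria3* on X, *Gria4* on 9, *Grin1* on 2, *Grin2a* on 16, *Grin2b* on 6, *Grin2d* on 7 and *Grin3a* on 4. As tags are counted at 5′ ends, CPM does not grow with transcript length and can be set side by side between genes. In pre-SE mice the order was *Gria2* (983 ± 300.1 CPM, SD, n = 2), *Gria1* (764 ± 79.5), *Grin1* (577 ± 134), *Grin2b* (364 ± 13.7), *Grin2a* (259.9 ± 39.5), *Gria3* (199.9 ± 48.7), *Gria4* (79.1 ± 6.82), *Grin2c* (33.0 ± 8.29), *Grin3a* (29.7 ± 2.02) and *Grin2d* (2.06 ± 0.014). The mice of neighbours in that order overlapped for *Gria2* and *Gria1*, for *Grin2a* and *Gria3*, and for *Grin2c* and *Grin3a*, and for no other neighbours. In SE 2 days mice *Gria2* (515 ± 34.5), *Grin1* (499 ± 109.7) and *Gria1* (450.1 ± 176) overlapped from one to the next, *Gria1* also overlapped with *Grin2b* (306 ± 53.4), and *Grin2c* (10.9 ± 0.54) stood below *Grin3a* (12.4 ± 0.57). *Grin2d* was the lowest member in every group, resting on 12 to 106 tags a mouse.

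**Figure D1:**
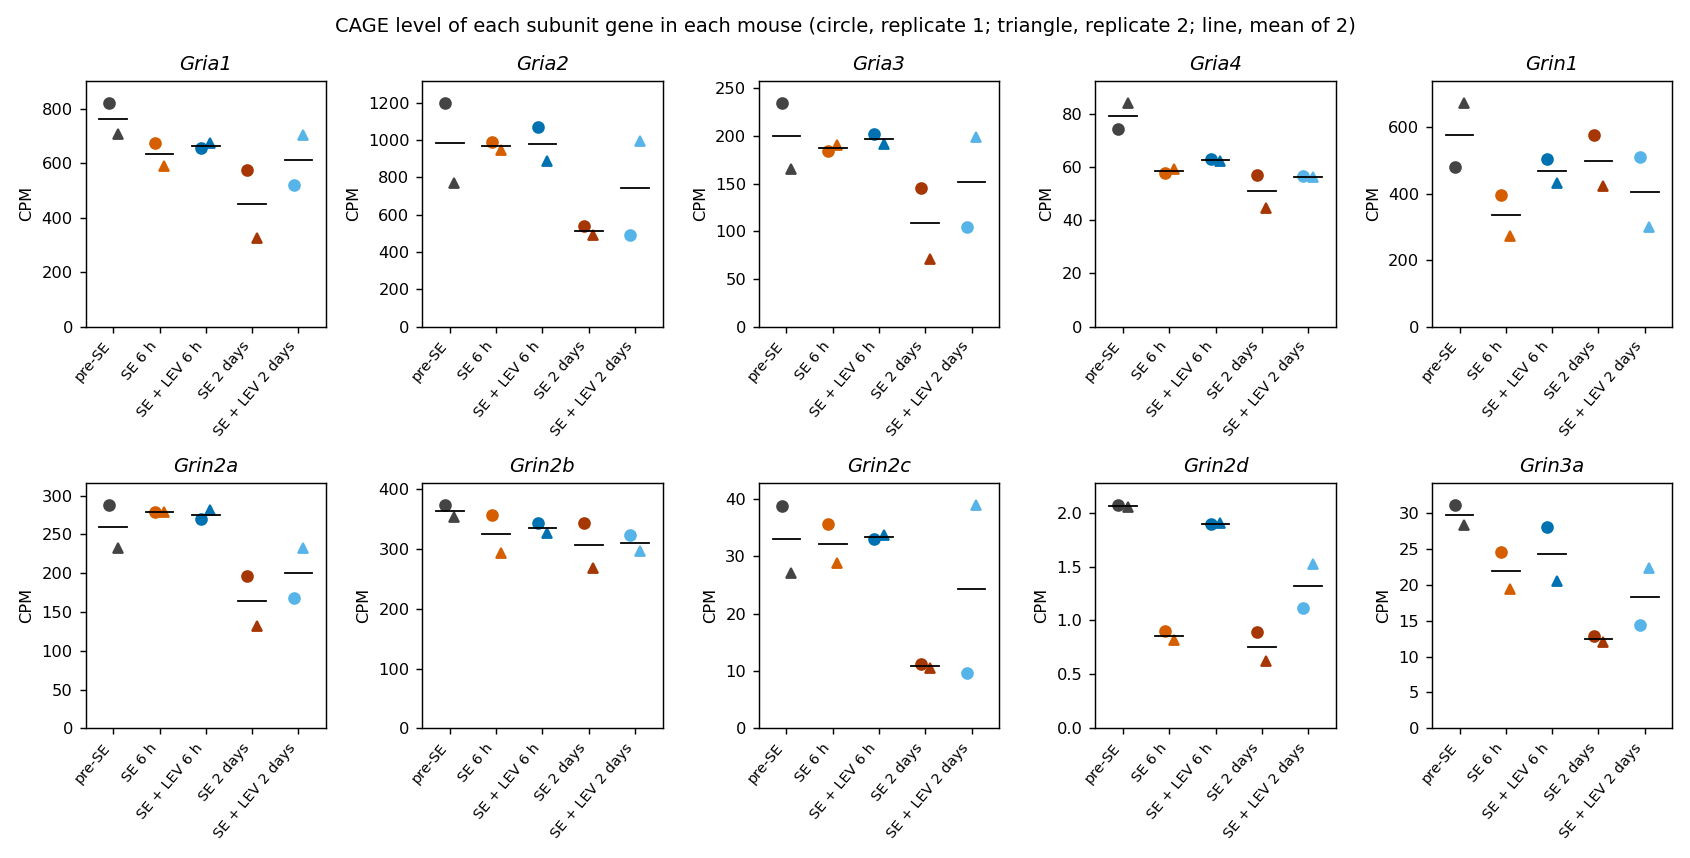
CPM of each of the 10 subunit genes on linear axes from 0, with a circle for replicate 1, a triangle for replicate 2 and a line for the mean of 2 mice in each group. Most panels are lowest at SE 2 days, *Grin1* is lowest at SE 6 h, and the 2 SE + LEV 2 days mice stand apart in *Gria2*, *Gria3* and *Grin2c*.

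At 2 days after SE, the estimates of all 10 members were below pre-SE, against 52.8% of all genes, and 1 of the members, *Grin3a*, passed the test. *Grin3a* (ENSMUSG00000039579, mm9 chromosome 4 from 49674483 to 49858616, minus strand) had 31.1 and 28.3 CPM before SE, 24.6 and 19.4 at 6 h, 12.8 and 12.0 at 2 days, and with LEV 28.0 and 20.6 at 6 h and 14.4 and 22.3 at 2 days. Both SE 2 days mice were thus below every other mouse. Against pre-SE alone, both SE 2 days mice were lower for 25.6% of all genes, and the share below every other mouse was not computed. The level of *Grin3a* fell by 57.9% at 2 days against pre-SE, a log2 fold change (logFC) of −1.25 (standard error 0.29, 95% interval −1.90 to −0.60, limma adjusted p = 0.0353). The call did not hold with replicate number as a block (adjusted p = 0.0507) or when any 1 of the 4 mice was left out (adjusted p from 0.0889 to 0.225, logFC from −1.32 to −1.18). *Grin3a* holds 2 other genes on its own strand in the annotation, neither of which is listed in the table. Over all genes 0.593% were called lower and 5.07% higher in this comparison.

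The other NMDA receptor subunits with low levels had larger estimates than *Grin3a* but wider intervals. *Grin2c*, whose product gives NMDA receptors with weak magnesium block and is best known from the cerebellum, had 38.8 and 27.1 CPM before SE, 35.7 and 28.8 at 6 h, 11.3 and 10.5 at 2 days, and with LEV 33.0 and 33.7 at 6 h and 9.65 and 38.9 at 2 days. *Grin2d*, whose product gives slowly closing receptors and is known from inhibitory interneurons, had 2.07 and 2.05 CPM before SE, 0.90 and 0.82 at 6 h, 0.89 and 0.62 at 2 days, and with LEV 1.89 and 1.90 at 6 h and 1.12 and 1.52 at 2 days. In each of these genes both SE 2 days mice were below both pre-SE mice, as they were for 25.6% of all genes. At 2 days against pre-SE, the logFC was −1.57 for *Grin2c* (95% interval −2.71 to −0.43, limma adjusted p = 0.115) and −1.36 for *Grin2d* (−2.19 to −0.52, adjusted p = 0.0647). With DESeq2 on the recovered tags *Grin2c* was called (adjusted p = 0.0169), as it was when only these groups were fitted (0.0267), and *Grin2d* was called without a mean-variance trend (0.0193) and with a pseudocount of 0.5 (0.0421) or 1 (0.0321). Of all genes, DESeq2 called 2.19% lower, the fit of only these groups 0.637%, the fit without a trend 0.498% and the fits with these pseudocounts 0.606% and 0.587%. The 13 tags of *Grin2d* in the second SE 2 days mouse allow 0.33 to 1.06 CPM (exact 95% Poisson interval, counting error only).

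Among the NMDA receptor subunits with high levels, *Grin2a* and *Grin2b* encode the GluN2 subunits that predominate in the adult forebrain. *Grin2a* had 288 and 232 CPM before SE, 278 and 279 at 6 h, 196 and 131 at 2 days, and with LEV 269.8 and 282 at 6 h and 167 and 233 at 2 days. *Grin2b* had 373 and 354 CPM before SE, 357 and 292 at 6 h, 344 and 268 at 2 days, and with LEV 344 and 326 at 6 h and 323 and 297 at 2 days. Both SE 2 days mice were below both pre-SE mice in each of the 2 genes, against 25.6% of all genes. The logFC at 2 days was −0.69 for *Grin2a* (95% interval −1.26 to −0.11, limma adjusted p = 0.171) and −0.26 for *Grin2b* (−0.75 to 0.23, adjusted p = 0.583). A listed lincRNA on the other strand covers the annotated start of *Grin2b* (mm9 chromosome 6 from 135679844 to 136123529), so its tags are uncertain if counting did not use strand.

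*Grin1*, which encodes the subunit that every NMDA receptor needs, took another course. Its level was 482 and 672 CPM before SE, 397 and 272 at 6 h, 577 and 422 at 2 days, and with LEV 503 and 433 at 6 h and 509.7 and 299 at 2 days. It was lowest in SE 6 h mice, both of which were below all pre-SE mice (31.3% of all genes) and all SE 2 days mice (31.0%). The pre-SE and SE 2 days mice overlapped in *Grin1*. At 2 days against pre-SE its logFC was −0.21 (95% interval −0.93 to 0.52, limma adjusted p = 0.788).

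Of the AMPA receptor subunits, *Gria1* and *Gria2* encode those of most hippocampal pyramidal cell receptors. *Gria1* had 820.2 and 708 CPM before SE, 676 and 589 at 6 h, 574 and 326 at 2 days, and with LEV 655 and 676 at 6 h and 521 and 706 at 2 days. *Gria2* had 1196 and 771 CPM before SE, 991 and 945 at 6 h, 539 and 490.2 at 2 days, and with LEV 1067 and 888 at 6 h and 491 and 992 at 2 days. For *Gria2* both SE 2 days mice were far below all mice of the pre-SE and 6 h groups. Over all genes, both were below pre-SE in 25.6% and below SE 6 h in 20.1%. *Gria1* differed 1.76-fold between the 2 SE 2 days mice. The logFC at 2 days against pre-SE was −0.82 for *Gria1* (95% interval −1.48 to −0.16, limma adjusted p = 0.156) and −0.90 for *Gria2* (−1.67 to −0.13, adjusted p = 0.179).

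*Gria3* and *Gria4* encode the remaining AMPA receptor subunits, and GluA4 is known from fast-spiking interneurons. *Gria3* had 234 and 165 CPM before SE, 184 and 191 at 6 h, 146 and 71.0 at 2 days, and with LEV 202 and 192 at 6 h and 104 and 199 at 2 days. *Gria4* had 74.3 and 84.0 CPM before SE, 57.8 and 59.2 at 6 h, 57.1 and 44.8 at 2 days, and with LEV 63.2 and 62.2 at 6 h and 56.7 and 56.2 at 2 days. Every post-SE mouse was below both pre-SE mice in *Gria4*. Taken group by group, this held for 17.5% to 31.3% of all genes, and the share for all groups at once was not computed. In *Gria3* the SE 2 days mice were below all pre-SE mice (25.6% of all genes) and all SE 6 h mice (20.1%). The logFC at 2 days was −0.95 for *Gria3* (95% interval −1.79 to −0.11, limma adjusted p = 0.192) and −0.64 for *Gria4* (−1.11 to −0.18, adjusted p = 0.112).

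Counted together, both SE 2 days mice were below both pre-SE mice for 9 of the 10 members, *Grin1* being the exception, and this held for 25.6% of all genes tested. At an unadjusted p under 0.05, 8 of the 10 members were lower, against 7.29% of all genes. The median logFC of the members was −0.86 (range −1.57 to −0.21) and that of all genes −0.03. The 10 genes share libraries and cells, so they are not independent observations.

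**Figure D2:**
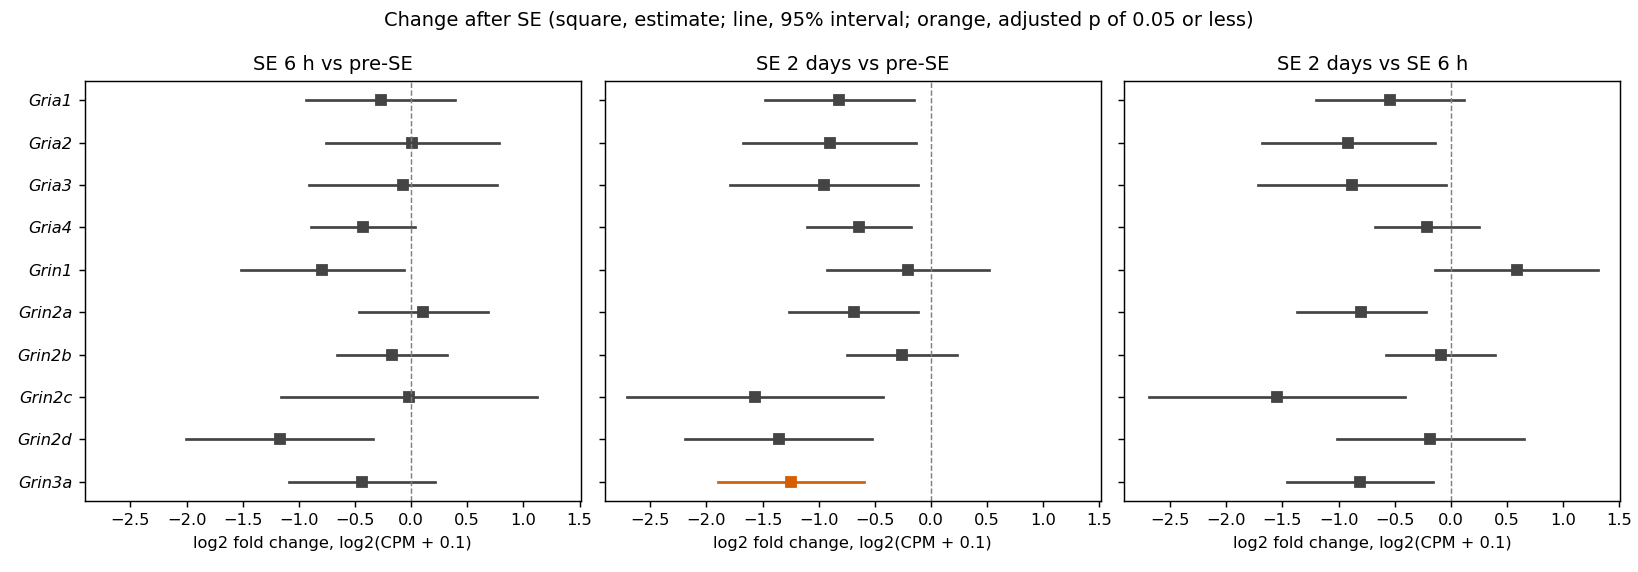
logFC on the log2(CPM + 0.1) scale with 95% intervals from the limma fit for each of the 10 members in 3 comparisons, orange where the adjusted p was 0.05 or less. The SE 2 days against pre-SE estimates all lie below 0, from −1.57 to −0.21, and *Grin3a* is the only orange point.

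At 6 h after SE, no member was called against pre-SE by limma, edgeR or DESeq2, although 0.202% of all genes were called lower and 2.76% higher by limma. Both SE 6 h mice were below both pre-SE mice for 5 members (*Gria1*, *Gria4*, *Grin1*, *Grin2d* and *Grin3a*), against 31.3% of all genes. *Grin2d* had a logFC of −1.17 (95% interval −2.0 to −0.34, limma unadjusted p = 0.0106, adjusted p = 0.146). *Grin1* had a logFC of −0.79 (−1.52 to −0.07, limma unadjusted p = 0.0351, adjusted p = 0.242). These 2 members were those lower at an unadjusted p under 0.05, against 8.51% of all genes. The median logFC of all genes was −0.13 here, and scaling by the median of gene-wise ratios gave −1.05 for *Grin2d* and −0.66 for *Grin1*. *Gria2* and *Grin2a* overlapped between the groups, and their means differed by less than the SD of the pre-SE mice.

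Between 6 h and 2 days after SE, no member was called by limma, where 1.11% of all genes were called lower and 3.14% higher, and 5 members were lower at an unadjusted p under 0.05 (7.29% of all genes). Both SE 2 days mice were below both SE 6 h mice for 7 members, against 20.1% of all genes, and *Grin1* was the only member above. *Grin2c* had a logFC of −1.55 (95% interval −2.69 to −0.41, limma adjusted p = 0.131), *Gria2* of −0.91 (−1.68 to −0.14, adjusted p = 0.182) and *Grin2a* of −0.80 (−1.37 to −0.22, adjusted p = 0.125). DESeq2, which called 3.7% of all genes lower, called these 3 members lower (adjusted p = 0.0126, 0.0473 and 0.0265). The quasi-likelihood test of edgeR called 0 members and 0.99% of all genes lower, and the limma fit of only these groups called *Grin2c* (adjusted p = 0.0239) and 1.28% of all genes. *Grin1* had a logFC of 0.59 (−0.14 to 1.31, limma adjusted p = 0.345).

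To ask whether LEV altered these levels, treated and untreated mice were compared at each time. At 6 h limma called no member, and 0.0126% of all genes lower and 0% higher. The edgeR quasi-likelihood test and DESeq2 called 0 members too, and at an unadjusted p under 0.05 limma had 1 member higher, against 1.16% of all genes. This was *Grin2d*, whose 2 SE + LEV 6 h mice had more than the 2 SE 6 h mice (logFC 1.06, 95% interval 0.22 to 1.89, limma unadjusted p = 0.018, adjusted p = 0.904). *Grin1* was also above in both treated mice, with a logFC of 0.51 (−0.22 to 1.23, limma adjusted p = 1). Both treated mice were above both untreated mice for these 2 members and for *Gria3* and *Gria4*, 4 in all, against 16.1% of all genes. Against pre-SE, SE + LEV 6 h mice had 0 members called by any of the 3 tools and 0 at an unadjusted p under 0.05, where limma called 0.00631% of all genes lower and 0.315% higher. Both treated mice were below both pre-SE mice for 5 members (25.5% of all genes).

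At 2 days, limma, edgeR and DESeq2 called 0 members between SE + LEV and SE mice, 0 had an unadjusted p under 0.05, and limma called 0% of all genes lower and 0% higher. The 2 SE + LEV 2 days mice differed from each other more than the mice of any other group did in *Gria2* and *Grin2c*. Replicate 1 had *Gria2*, *Gria3* and *Grin2c* levels near or within those of the SE 2 days mice, and replicate 2 had levels within the range of the pre-SE mice or, for *Grin2c*, just above it. *Grin2c* differed 4.04-fold between the 2 mice, *Gria2* 2.02-fold and *Gria3* 1.91-fold, and *Gria3* also differed 2.05-fold between the 2 SE 2 days mice. The estimated logFC was 0.83 for *Grin2c* (95% interval −0.31 to 1.97), 0.50 for *Gria3* (−0.34 to 1.34), 0.49 for *Gria1* (−0.17 to 1.15) and 0.44 for *Gria2* (−0.33 to 1.21). Without replicate 2 of SE + LEV 2 days these were −0.17 for *Grin2c*, 0.03 for *Gria3*, 0.27 for *Gria1* and −0.065 for *Gria2*.

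*Grin2d* and *Grin3a* were the 2 members for which both SE + LEV 2 days mice were above both SE 2 days mice, against 15.2% of all genes. The logFC was 0.74 for *Grin2d* (95% interval −0.10 to 1.57) and 0.53 for *Grin3a* (−0.12 to 1.18), each with a limma adjusted p of 1. *Grin1* had a logFC of −0.34 (−1.06 to 0.39), *Gria4* of 0.16 (−0.30 to 0.62), *Grin2a* of 0.30 (−0.28 to 0.87) and *Grin2b* of 0.03 (−0.46 to 0.52). The intervals of *Gria1* and *Gria2* contain both no change and a rise as large as their estimated difference between SE 2 days and pre-SE mice. The difference between the LEV effects at 2 days and at 6 h was tested by an interaction term, which called 0 members by limma, edgeR or DESeq2, had 0 at an unadjusted p under 0.05, and called 0% of all genes by limma in either direction.

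With all mice in the fit, SE + LEV 2 days mice had no member called against pre-SE by limma, edgeR or DESeq2. In this comparison limma called 0.0189% of all genes lower and 2.83% higher. All 10 estimates were below 0, as were 48.2% of those of all genes. Both mice were below both pre-SE mice for 5 members (*Gria1*, *Gria4*, *Grin2b*, *Grin2d* and *Grin3a*), against 17.5% of all genes. At an unadjusted p under 0.05, 2 members were lower, against 1.91% of all genes, *Grin3a* with a logFC of −0.72 (95% interval −1.37 to −0.07, limma adjusted p = 0.369) and *Gria4* with −0.48 (−0.95 to −0.02, limma adjusted p = 0.421). SE 2 days and SE + LEV 2 days mice were compared with the same pre-SE mice, so the 2 sets of values are not independent.

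**Figure D3:**
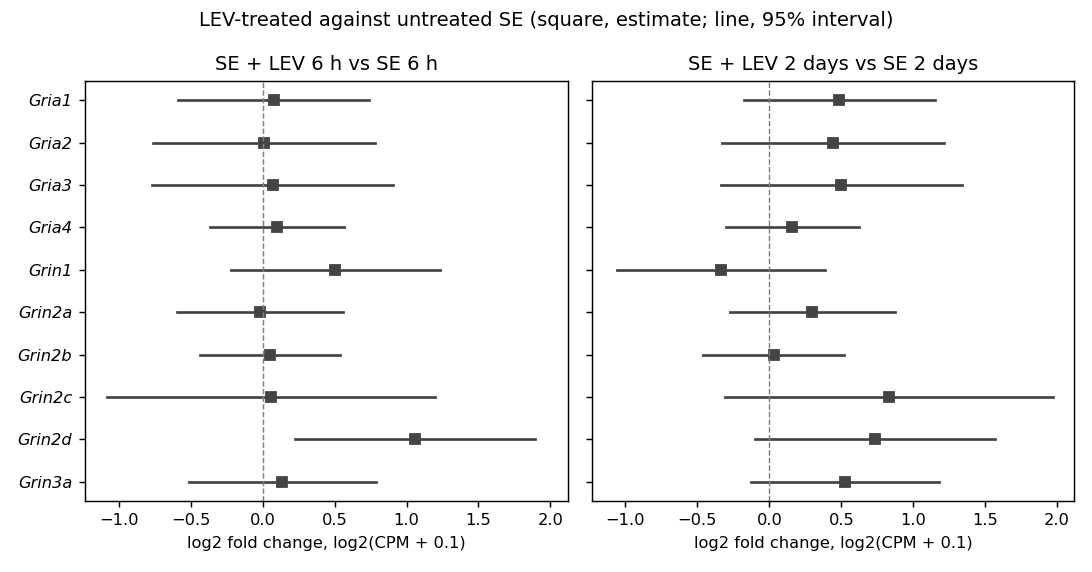
logFC on the log2(CPM + 0.1) scale with 95% intervals from the limma fit for each member, SE + LEV against SE mice at 6 h (left) and 2 days (right). At 6 h the interval of *Grin2d* (0.22 to 1.89) is the only one without 0, and at 2 days every interval contains 0.

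Levels were also summed over each family. *Gria1* to *Gria4* summed to 2324 and 1728 CPM before SE, 1909 and 1784 at 6 h, 1316 and 932 at 2 days, and with LEV 1987 and 1818 at 6 h and 1173 and 1953 at 2 days. The 6 *Grin* genes summed to 1215 and 1315 CPM before SE, 1094 and 893 at 6 h, 1141 and 844 at 2 days, and with LEV 1180 and 1096 at 6 h and 1025 and 892 at 2 days. AMPA and NMDA sums of SE 2 days mice were both below those of pre-SE mice, with a ratio of AMPA to NMDA sum of 1.15 and 1.104 against 1.91 and 1.31. The ratio was 1.14 and 2.19 in the 2 SE + LEV 2 days mice.

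*Gria2* made up 51.4% and 44.6% of the AMPA sum before SE, 51.9% and 53.0% at 6 h, 41.0% and 52.6% at 2 days, and with LEV 53.7% and 48.9% at 6 h and 41.9% and 50.8% at 2 days. These shares overlapped in 6 of the 7 comparisons of 2 groups, and in SE 6 h against pre-SE, where they did not, the exact permutation p was 0.333. *Grin2a* made up 43.5% and 39.6% of the *Grin2a* and *Grin2b* sum before SE, 43.8% and 48.8% at 6 h, 36.3% and 32.9% at 2 days, and with LEV 44.0% and 46.4% at 6 h and 34.1% and 43.9% at 2 days. Both SE 2 days mice had the lower share against pre-SE (34.6% against 41.6% on average, two-sided exact permutation p = 0.333, the smallest possible) and against SE 6 h (46.3%, p = 0.333 in the same exact permutation test). The SE 6 h and SE + LEV 6 h mice had a higher *Grin2a* share than both pre-SE mice, again at the smallest exact permutation p of 0.333, and the other comparisons overlapped.

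**Figure D4:**
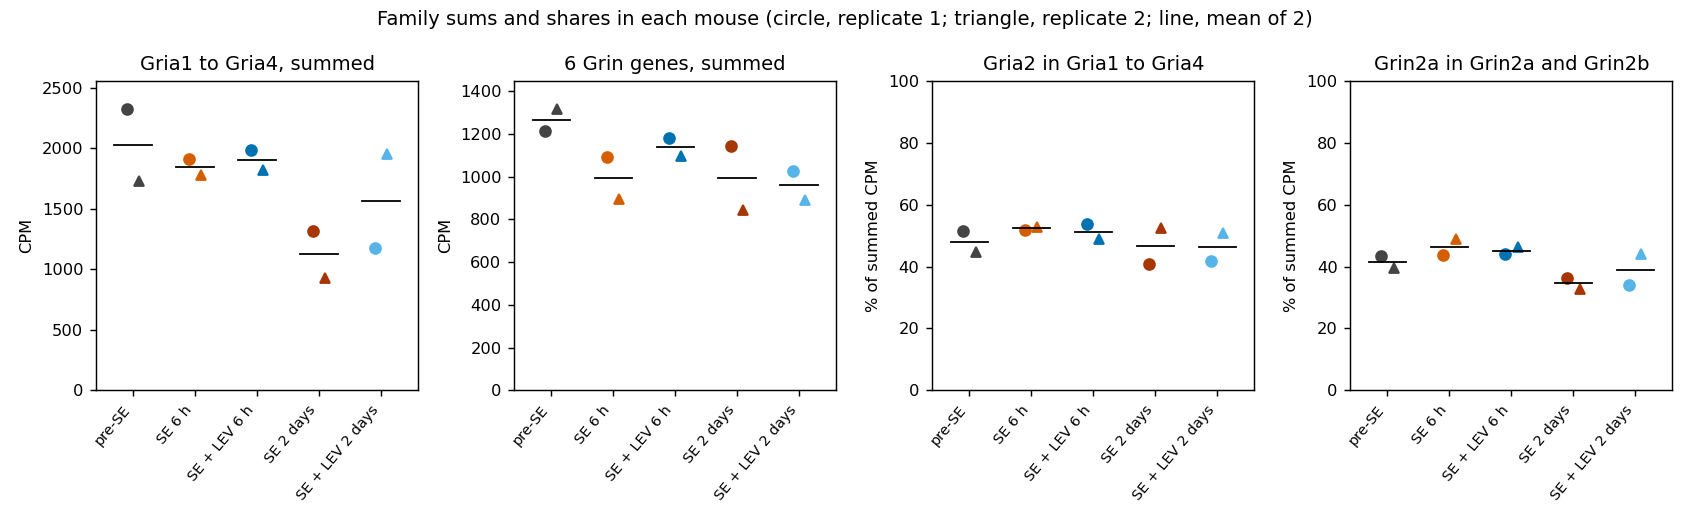
Summed CPM of the 4 AMPA and the 6 NMDA receptor genes (left pair) and the percentage of *Gria2* and of *Grin2a* in their sums (right pair), with a circle for replicate 1, a triangle for replicate 2 and a line for the mean of 2 mice. SE 2 days mice had the lowest mean AMPA sum, with 1316 and 932 CPM, and the lowest mean *Grin2a* share, with 36.3% and 32.9%.

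The 3 genes whose log2(CPM + 0.1) followed that of *Grin3a* most closely over the 10 libraries were Gm12680 (Pearson r = 0.99), *Rab3b* (0.97) and *Phf1* (0.97). *Rab3b*, which encodes a GTPase of synaptic vesicles, had 57.5 and 52.3 CPM before SE and 30.3 and 29.2 at 2 days. The points share libraries and depth, and these were the highest values over all genes tested, so they are a description only.

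Of the other genes of the glutamate synapse, 62 of the 64 on the lists were tested. At 2 days against pre-SE, 2 of these were called higher and 0 lower, against 5.07% and 0.593% of all genes. *Nptx2*, which encodes a secreted pentraxin that clusters AMPA receptors, had 34.5 CPM in both pre-SE mice and 190.9 and 1318 CPM at 2 days (logFC 3.86, standard error 0.82, limma adjusted p = 0.0233). Its levels at 6 h were 357 and 355 CPM, and with LEV they were 353 and 149 at 6 h and 244 and 63.3 at 2 days. *Arc*, which encodes an immediate early protein that promotes removal of AMPA receptors from synapses, had 58.1 and 107.6 CPM before SE, 2129 and 790 at 6 h and 339 and 861 at 2 days. With LEV it had 307 and 260 CPM at 6 h and 127 and 115 at 2 days. Both treated mice were thus below both untreated mice at each time, which held for 13.4% of all genes at 6 h and 12.2% at 2 days. Against pre-SE, *Arc* was called higher at both times (logFC 4.03 at 6 h, limma adjusted p = 0.0037, and 2.77 at 2 days, adjusted p = 0.0121). At 6 h it was the only one of the 62 called, where 2.76% of all genes were called higher and 0.202% lower. In LEV-treated against untreated mice none of the 62 was called by limma at either time. Over all genes limma called 0.0126% lower and 0% higher at 6 h, and 0% in either direction at 2 days.

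The receptor-related lists had these medians at 2 days against pre-SE. All 7 kainate and delta receptor subunits tested had estimates below 0 (median logFC −0.57, from −1.0 to −0.12), of which none was called (lowest limma adjusted p = 0.175). For the 16 auxiliary subunits of AMPA and kainate receptors the median logFC was −0.41, with 12 estimates below 0, and for the 23 postsynaptic scaffold and trafficking genes −0.27. The 6 glutamate transporters had a median of −0.59, and *Slc1a2*, which encodes the main astrocytic glutamate transporter, had a logFC of −0.93 (limma adjusted p = 0.0614).

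**Figure D5:**
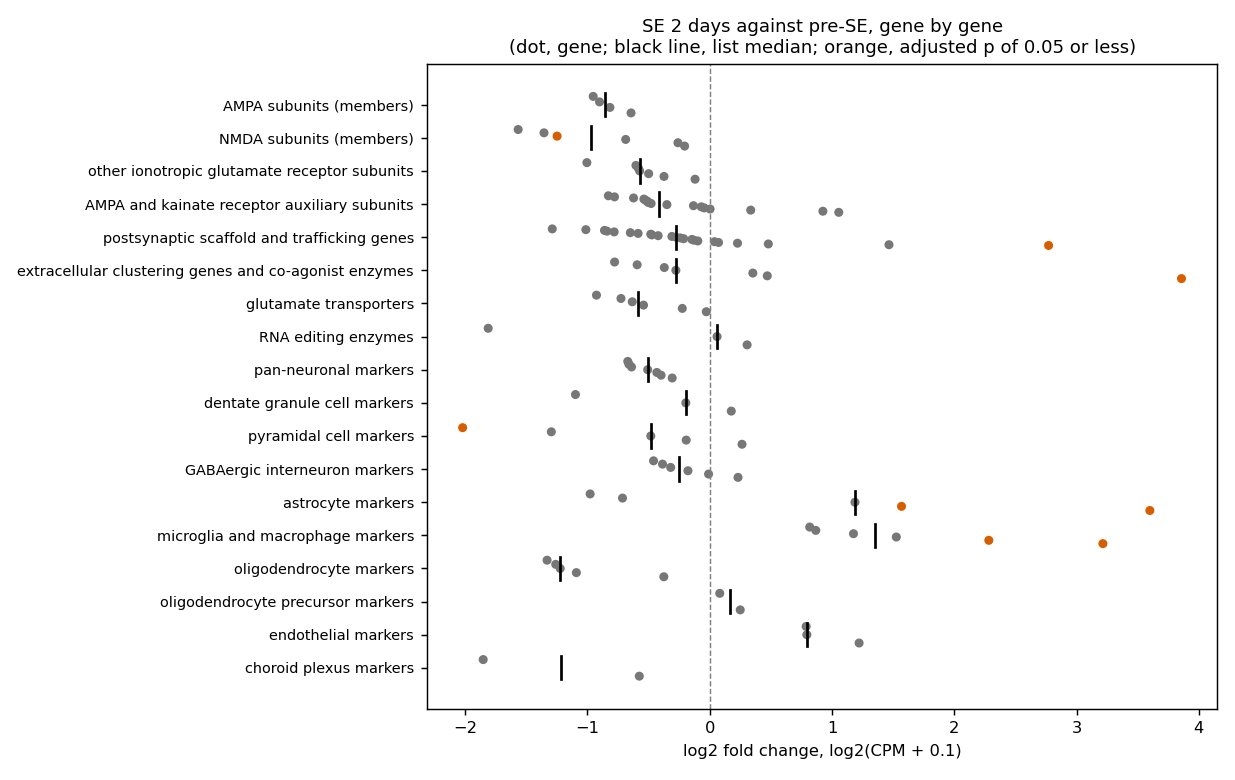
logFC on the log2(CPM + 0.1) scale at SE 2 days against pre-SE for every tested gene of each list (dots), with the list median (black line) and orange for an adjusted p of 0.05 or less. AMPA and NMDA receptor subunits have medians of −0.86 and −0.97, pan-neuronal markers −0.51, and astrocyte and microglia markers 1.19 and 1.35.

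Levels of cell type markers were compared in the same way, and in whole tissue fewer cells of a type and less RNA per cell cannot be told apart. The 7 pan-neuronal markers tested summed to 4714 to 5857 CPM in pre-SE, 4089 to 5653 in SE 6 h, 3220 to 3716 in SE 2 days and 3098 to 3423 in SE + LEV 2 days mice. None was called at 2 days against pre-SE, and all 7 estimates were below 0 (median logFC −0.51, from −0.67 to −0.31). When libraries were rescaled by the geometric mean of these markers, 8 members had lower and 2 higher estimates at 2 days against pre-SE (median −0.34) and none was called. *Grin3a* then had a logFC of −0.73 (limma adjusted p = 0.234), *Grin2c* −1.05 (adjusted p = 0.224), *Grin1* 0.31 and *Grin2b* 0.26.

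Of the glial markers, 2 of astrocytes and 2 of microglia rose at 2 days against pre-SE, where 5.07% of all genes were called higher. The 5 astrocyte markers summed to 596 to 718 CPM in pre-SE and 2597 to 4022 in SE 2 days mice, with 2 of 5 called higher (*Gfap* and *Aqp4*) and 2 of 5 with estimates below 0 (lowest logFC −0.98). *Gfap* alone had 238 ± 10.9 and 2962 ± 962 CPM (SD, n = 2) in these groups and made up most of the rise in the sum. The 6 microglia and macrophage markers summed to 131 to 134 and 350.04 to 350.4 CPM, with 2 of 6 called higher (*Cd68* and *Aif1*). The 5 oligodendrocyte markers summed to 4466 to 5029 and 1639 to 2456 CPM, with 0 of 5 called. The 5 pyramidal cell markers summed to 603 to 683 and 497 to 499.9 CPM, and 1 was called lower, against 0.593% of all genes. This was *Fibcd1*, a marker of CA1 pyramidal cells (logFC −2.02, limma adjusted p = 0.0448). The median logFC of the 5 was −0.48, and 1 had an estimate above 0 (0.26). The 6 GABAergic interneuron markers summed to 888 to 1084 CPM in pre-SE and 828 to 1282 in SE 2 days mice (median logFC −0.25), with 0 called. In the same groups 3 dentate granule cell markers summed to 363 to 439 and 199 to 270 CPM (median logFC −0.20, from −1.10 to 0.18). The sums of 3 endothelial markers were 32.0 to 34.6 and 52.7 to 73.8 CPM, and 0 of either list were called. The 2 choroid plexus markers listed summed to 6.28 and 1681 CPM in pre-SE, 4.84 and 3975 in SE 6 h, 855 and 32.4 in SE + LEV 6 h, 58.0 and 14.8 in SE 2 days and 1483 and 20.04 in SE + LEV 2 days mice, replicates 1 and 2 in turn, so these markers differed widely between mice of 1 group. No marker was at 0 in both mice of any group. The part of these cell types in the levels of the members was not tested.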

How the data were processed

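CAGE libraries of 10 hippocampi were used, with groups from the labels. Mapping by the authors was to mm9, with BWA (version 0.7.17) and HISAT2 (version 2.0.5). They clustered the tags with the RECLU pipeline, which discards clusters under 0.1 CPM, and deposited a table of CPM, 1 value per gene and mouse. How clusters were summed to genes, and whether strand was used, is not given in the sources used here. The submitters' processing notes also name bedtools 2.12.0 and edgeR 3.22.5.

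All CPM values were whole multiples of 1 tag within 0.0051 CPM, which gave totals of 10540698 to 51710968 tags per library (median 26671413). At these depths 3 tags correspond to 0.058 to 0.285 CPM. Intervals of tags cover counting error only. The values were taken as log2(CPM + 0.1), which understates changes of low genes. Of the 15900 genes, 15851 reached 0.1 CPM in 2 or more libraries, and these were fitted in limma 3.58.1 (R 4.3.3) with a mean per group and a trend of variance on level. Tests were two-sided, p-values were adjusted by the Benjamini-Hochberg method over all genes tested, and an adjusted p of 0.05 or less was taken as a call. Fits were tested on simulated data. Shares were compared by exact permutation tests (SciPy 1.17.1).

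Other settings tried were edgeR 4.0.16 (quasi-likelihood) and DESeq2 1.42.0 on the recovered tags, pseudocounts of 0.01, 0.5 and 1, no filter or one of 1 CPM in 2 libraries, scaling by median of ratios, a block for replicate number, no variance trend, fits of the 2 groups alone, and leaving out each mouse. Rescaling by pan-neuronal markers and a block with crossed numbers were added after seeing the data. Positions are those of GENCODE M1 on mm9, in which all 15900 gene IDs were found.

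The members and the lists were chosen with earlier results of these data known. All members are named, of the other lists the called genes (at most 4 per list and comparison), and the 3 genes most correlated with a called member. *Slc1a2* was named after its value was seen. *Grin3b*, *Frrs1l*, *Map2*, *Dsp* and *Folr1* were on the lists and were not analysed here.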

Additional observations from a re-analysis of the deposited data

How the results depend on the processing

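Of the 47 logFC values of single members followed here (all 10 members for SE 2 days against pre-SE and SE + LEV 2 days against SE 2 days, and elsewhere those whose groups did not overlap), 12 changed sign under at least 1 alternative, and the cause was not tested. At 2 days against pre-SE, where 1 member was called lower by limma, the count was 2 with a pseudocount of 0.5 or 1, with no mean-variance trend, with only the groups compared and with DESeq2. It was 0 with the pan-neuronal rescaling and from 0 to 0 with any 1 mouse left out, where fewer samples remain. For SE 2 days against SE 6 h it was 1 with only the groups compared and 3 with DESeq2. For SE + LEV 2 days against pre-SE, the logFC of *Grin2c* ranged from −1.74 to 0.26 with a mouse left out. It was lowest without SE + LEV 2 days replicate 2. That fit rests on 1 treated mouse, and the absence of a call for *Grin2c* did not hold in it. The pan-neuronal rescaling reversed *Grin1* (0.31) and *Grin2b* (0.26) at 2 days against pre-SE, *Gria4* (0.16) at 2 days against 6 h, and *Gria1* (0.21), *Gria4* (0.051) and *Grin2b* (0.31) for SE + LEV 2 days against pre-SE.

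For SE + LEV 2 days against SE 2 days, *Grin2b* was −0.020 with median-of-ratios rescaling or edgeR and −0.023 with DESeq2. With a mouse left out its logFC ranged from −0.15 to 0.21, that of *Gria2* from −0.065 to 0.95, *Gria3* from −0.018 to 1.02, *Gria4* from −0.015 to 0.33, *Grin1* from −0.72 to 0.047 and *Grin2c* from −0.17 to 1.83. *Grin1* at 2 days against pre-SE ranged from −0.45 to 0.035.

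Same-numbered mice were different animals, and their deviations correlated from −0.44 to 0.34 over the 7 comparisons of 2 groups, so the numbers do not pair them. With replicate number as a block, 0 members were called at 2 days against pre-SE, and no other member's call changed. With the numbers crossed, 0 members were called in SE + LEV 2 days against SE 2 days or pre-SE. Over all genes at 2 days against pre-SE, 94 were called lower by limma, 347 by DESeq2, 67 by edgeR, 19 after the pan-neuronal rescaling, and 3 to 190 with a mouse left out. Depth limits *Grin2d* most, as it rests on 12 to 106 tags a mouse.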
